A study of Platycodon grandiflorus with 6 samples.

Results

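The large subunit of the cytosolic ribosome, the 60S subunit, was followed through the contigs of its protein genes in callus and leaves of *Platycodon grandiflorus*. A unigene, which is a contig of the assembled transcriptome and not a locus in a genome, was a member when its SwissProt name held "60S ribosomal protein" or "60S acidic ribosomal protein". Of 152777 unigenes, 517 met this rule, 42 of them were set aside because their match in the NR protein database was to peanut (Arachis), and 475 remained. The 475 members fell into 326 clusters, where a cluster is a single unigene or a set of contigs to which the assembly gave a shared CL number. They covered 48 cytosolic proteins (452 members), a family named L18a-like protein (11 members), and mitochondrial L2 (7 members) and L6 (5 members), whose names also carry the 60S label. The callus libraries (replicates 1, 2 and 3) came from calli raised on stem pieces with nodes, on MS medium with 1.0 mg/L NAA, an auxin, and 0.5 mg/L 6-BA, a cytokinin, for 50 days. The leaf libraries (replicates 1, 2 and 3) came from leaves of the original plant, and neither tissue was given another treatment or genotype. The methods of the study call the 3 libraries of a tissue independent biological replicates, without naming the plants or cultures behind each, and p-values measure the spread between these libraries.

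The ribosome joins amino acids in the peptidyl transferase centre of its large subunit, and the growing chain leaves through a tunnel that ends on the far side. Each ribosome holds a single copy of nearly every ribosomal protein, the acidic proteins of the stalk being the exception, so the genes of the family are usually expressed together at similar levels. In plants most of these proteins are encoded by several near-identical genes, called paralogues, which can be used to different degrees in different tissues. Dividing and growing cells are known for high expression of the family.

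The total of expected counts lay between 17963302 and 19444322 per library after rounding, and no library was a copy of another. Leaf markers were lower in callus. Of 44 tested clusters of chlorophyll a-b binding proteins, Rubisco small chains, photosystem I subunits and oxygen-evolving enhancer proteins, 25 were lower and 1 was higher in callus, and their summed level was 12516 to 12987 FPKM in callus and 33928 to 43008 FPKM in leaves. The small chain of Rubisco (CL10163) had 1743, 1522 and 1468 FPKM in callus and 6284, 6269 and 7343 FPKM in leaves, and a chlorophyll a-b binding protein (Unigene29343_All) had 3210, 2304 and 2939 FPKM in callus and 6205, 6388 and 6211 FPKM in leaves. Both stayed abundant in callus. Of 67 tested clusters of histones, cyclins and replication proteins, 26 were higher and 7 lower in callus, and their sum overlapped at 2431 to 3776 FPKM in callus and 2506 to 3539 FPKM in leaves. Xylem markers were higher in callus in 12 of 20 tested clusters, phloem markers in 3 of 3 and guard cell markers in 1 of 2. Such clusters can also hold contigs with other names. The xylem cluster CL1844 had 154 FPKM in leaf replicate 1, where all xylem marker contigs summed to 54.6 FPKM. CL1844 was not called (-0.27 ± 0.16, edgeR adjusted p = 0.202), nor was the guard cell marker FAMA (-0.78 ± 0.42, adjusted p = 0.176). Of all clusters tested, 22.0% were higher and 20.8% lower in callus. In tissue RNA, fewer cells of a type and less RNA per cell cannot be told apart, and the part of these marker differences in the results below was not tested.

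The members held a larger part of the RNA in callus than in leaves. They took 1.35%, 1.64% and 1.85% of all expected counts in callus replicates 1, 2 and 3, and 1.15%, 0.864% and 1.06% in leaf replicates 1, 2 and 3. The callus libraries all lay above the leaf libraries, with means of 1.61% ± 0.253 in callus and 1.02% ± 0.146 in leaves (SD, n = 3 each). The 40S ribosomal proteins took 0.829%, 1.02% and 1.13% in callus and 0.621%, 0.460% and 0.561% in leaves.

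Summed over all contigs of a protein, most of the 48 proteins were more abundant in callus. In edgeR's quasi-likelihood test, 35 of 48 proteins rose with an adjusted p up to 0.05 and 0 fell, against 22.2% higher and 20.6% lower among all 32849 rows tested. At an unadjusted p under 0.05, 39 were higher and 2, L15 and L23a, were lower, and DESeq2 and limma also called 0 lower. The median log2 fold change of the 48 proteins, callus over leaf, was 0.74, and that of all rows was -0.04. On the FPKM scale, the 3 callus libraries lay above the 3 leaf libraries for 42 proteins and below them for 0, and the tissues overlapped for 6, while over all rows 32.1% lay above and 26.8% below. The rise was modest for each protein, with fitted log2 fold changes between 0.52 and 1.27 among those called, and none passed an adjusted p of 0.001 with a 2-fold change, a threshold that 2.46% of all rows passed. Without callus replicate 2 the number called was 21, and without callus replicate 3 it was 18.

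**Figure D1:**
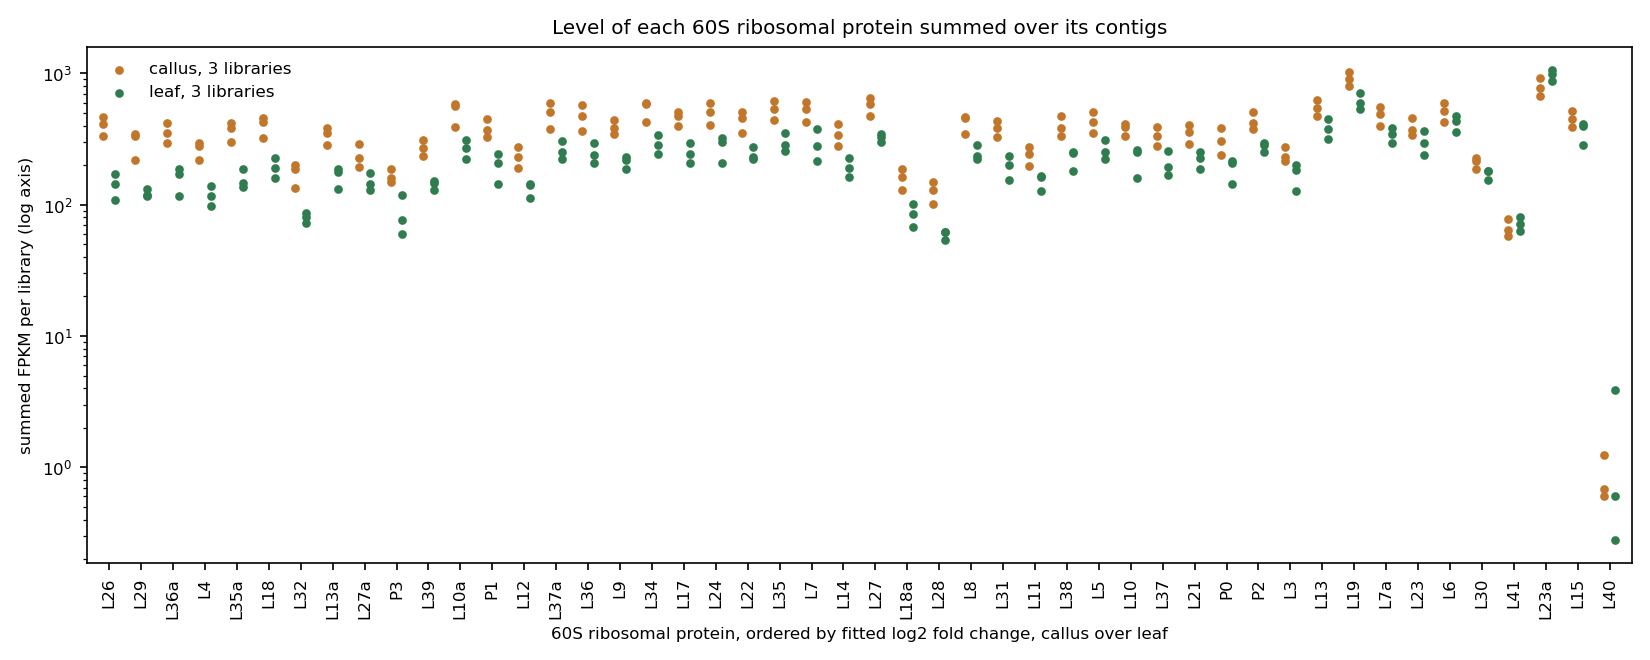
Summed FPKM of each of the 48 proteins in every library on a log axis, with callus points left of leaf points and the proteins ordered by fitted log2 fold change. The callus points lie above the leaf points for 42 proteins, and L40 stands apart at 0.28 to 3.85 FPKM.

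By the sum over all members, the protein with the largest rise was L26, which sits at the mouth of the exit tunnel. Its contigs summed to 331, 414 and 467 FPKM in callus and to 144, 109 and 170 FPKM in leaves. The tissues did not overlap, and the log2 fold change was 1.27 ± 0.17 (SE, edgeR adjusted p = 0.00279). L29, a small and basic protein, had 218, 333 and 347 FPKM in callus and 116, 118 and 131 FPKM in leaves, a log2 fold change of 1.23 ± 0.18 (adjusted p = 0.00395). L36a, which lies near the exit site for transfer RNA, followed with 295, 354 and 420 FPKM in callus and 187, 116 and 173 FPKM in leaves (1.12 ± 0.20, adjusted p = 0.00701). L4, whose extension reaches into the tunnel, had 219, 279 and 297 FPKM in callus and 117, 97.5 and 138 FPKM in leaves (1.08 ± 0.17, adjusted p = 0.00485). In each of these 4 proteins all leaf libraries lay below all callus libraries.

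Below these came L35a (1.06), L18 (1.02), L32 (0.98), L13a (0.98), L27a (0.93), P3 (0.90), L39 (0.89) and L10a (0.88), given here as log2 fold changes, with edgeR adjusted p values between 0.00397 and 0.0317. L37a, L36, L9, L34, L24, L22, L7, L14, L27, L18a, L28, L38, L37 and L21 rose by 0.61 to 0.85 on the same scale. With 1 library left out, the call of L37 was kept only without leaf replicate 1. Those of L7 and L18a were lost without callus replicate 2 or 3 and without leaf replicate 2 or 3. That of L38 was lost without callus replicate 2 or 3 and without leaf replicate 1 or 2. L14, L21, L24, L36 and L28 also lost their calls in some of these fits. CL4132, the only tested cluster of L28, was at 0.16 ± 0.17 (edgeR adjusted p = 0.482) with all its contigs counted. The rises of L27, L36 and L38 rest on contigs whose NR match does not name a ribosomal protein. For L27 the NR-named contigs hold 0.0936% of its counts, too few for the test. From the NR-named contigs alone, which hold 3.46% of the counts of L36 and 7.47% of those of L38, the values were -0.39 ± 0.30 (adjusted p = 0.319) for L36 and -0.51 ± 0.33 (adjusted p = 0.254) for L38. The same choice gave 1.73 for L28 and 1.71 for L36a, both above the 1.26 of L26. It gave 0.85 for L18a and 0.82 for L32. NR-named contigs hold 26.5% of the counts of L18a, 27% of those of L36a and 36.9% of those of L32. L24, which bridges to the small subunit, had 405, 507 and 597 FPKM in callus and 322, 208 and 300 FPKM in leaves (0.80 ± 0.20, adjusted p = 0.0221). L9, at the foot of the stalk, had 348, 383 and 441 FPKM in callus and 219, 187 and 229 FPKM in leaves (0.82 ± 0.14, adjusted p = 0.00588). Neither overlapped between the tissues.

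By place in the ribosome, the exit tunnel and its mouth held L4, L17, L19, L23a, L26, L31, L35 and L39. They rose in 6 of 8 cases, with a median log2 fold change of 0.79, and L19 (0.40 ± 0.16, adjusted p = 0.0915) and L23a were the others. Proteins in none of the places named here rose in 22 of 30 cases, with a median of 0.74. The tunnel proteins thus rose about as often as these, and whether place is related to the rise was not tested. L39, a very short protein that lines the tunnel, had 236, 270 and 313 FPKM in callus and 147, 130 and 151 FPKM in leaves (0.89 ± 0.13, adjusted p = 0.00397). Of the proteins of the stalk that recruits translation factors, P1 (0.86 ± 0.21, adjusted p = 0.0212), P2 (0.52 ± 0.14, adjusted p = 0.0274), P3 and L12 (0.85 ± 0.16, adjusted p = 0.00809) rose. P0 did not pass (0.60 ± 0.22, adjusted p = 0.0722). P3, which is specific to plants and is covered by a single contig, had 161, 148 and 186 FPKM in callus and 119, 59.4 and 76.3 FPKM in leaves (0.90 ± 0.25, adjusted p = 0.0317). With 1 library left out, its call was kept only without leaf replicate 1, with adjusted p values of 0.0570 to 0.0976 otherwise. The calls of P1 and P2 were lost without callus replicate 2 and without callus replicate 3. That of P2 was also lost without leaf replicate 1 (edgeR adjusted p = 0.0631) and without leaf replicate 2 (0.0730). Both proteins that bind 5S ribosomal RNA rose, L5 by 0.64 ± 0.18 (adjusted p = 0.0318) and L11 by 0.65 ± 0.16 (adjusted p = 0.0208) on the log2 scale. Their calls too were lost without callus replicate 2 and without callus replicate 3. Without leaf replicate 2 both were lost as well (edgeR adjusted p = 0.0828 for L5 and 0.0564 for L11), and L5 also without leaf replicate 3 (0.0711). Of L3, L8 and L10, which reach towards the peptidyl transferase centre, L8 rose (0.69 ± 0.16, adjusted p = 0.0176). Its call was lost without callus replicate 2 or 3 and without leaf replicate 1 or 2, at edgeR adjusted p values of 0.0527 to 0.0617. As sums, L3 was at 0.47 ± 0.20 (adjusted p = 0.111) and L10 at 0.63 ± 0.21 (adjusted p = 0.0563). The most abundant cluster of L3, CL9677, was called higher (1.13 ± 0.21, adjusted p = 0.00816). So was that of L10, CL3687 (0.72 ± 0.23, adjusted p = 0.0473). On average, CL9677 held 83.3% of the L3 counts in callus and 51.9% in leaves. Another L3 contig, Unigene70743_All, had 1060 counts in leaf replicate 1 and 0 in every other library. Proteins found in all domains of life rose in 13 of 18 cases and those found in archaea and eukaryotes or in eukaryotes alone in 19 of 27, with medians of 0.75 and 0.73.

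The proteins that did not rise as sums were L40, L15 and L23a, with negative estimates, and L41, L30, L6, L23, L7a, L19, L13, L3, P0 and L10, with positive ones. L41, a peptide at the interface of the subunits, had 57.8, 64.2 and 77.7 FPKM in callus and 63.0, 71.2 and 81.2 FPKM in leaves (0.12 ± 0.16, adjusted p = 0.561), and the tissues overlapped. L40 is made as a fusion with ubiquitin, and its 4 member contigs held 0.60, 1.25 and 0.68 FPKM in callus and 3.85, 0.28 and 0.61 FPKM in leaves. Its cluster CL12462 also holds 3 contigs named Polyubiquitin 3, and as a sum it had 323, 387 and 480 FPKM in callus and 293, 154 and 180 FPKM in leaves, nearly all of it from those contigs. The level of L40 itself therefore cannot be read from either sum.

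Clusters come closest to single paralogues, although reads of near-identical copies can be split between contigs and their levels are uncertain to that extent. Of the 326, 178 had enough counts for the test. The 148 untested clusters held 0.301% of the counts of all member clusters. Of the 178, 75 rose (42.1%) and 21 fell (11.8%) in callus by the same edgeR threshold, against 22.0% and 20.8% of all 32950 clusters tested. The median log2 fold change was 0.58 over the member clusters and -0.05 over all clusters. FPKM values of callus lay above those of leaves without overlap in 94 member clusters and below in 26, against 32.1% and 26.8% of all clusters. Without callus replicate 3 the number of member clusters called was 61. The number of lower calls depended on the tool more than that of higher calls: DESeq2 gave 77 higher and 50 lower, limma on log2(FPKM + 1) gave 74 and 39, and limma on log2(FPKM + 0.01) gave 73 and 58. Of 89 tested clusters named 40S ribosomal protein, 44 rose and 6 fell, with a median of 0.57. Among single unigenes, 72 of 297 tested members rose and 17 fell, against 14.2% and 12.3% of all unigenes. There were 12 calls in all without callus replicate 2 and 4 without callus replicate 3, while DESeq2 gave 95 higher and 64 lower, limma on log2(FPKM + 1) gave 91 and 45, and limma on log2(FPKM + 0.01) gave 79 and 65. At an adjusted p of 0.001 and a 2-fold change, 7 member clusters passed (2.46% of all clusters), and 0 member unigenes did (0.00% of all unigenes).

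For each protein, the most abundant cluster was called higher in callus in 37 of 48 cases, among them CL12462 with its polyubiquitin contigs, and lower in 1, L23a. From member contigs alone these numbers were 38 and 1, without CL12462. Also from member contigs, clusters of the same protein were called in both directions in 8 proteins (L3, L5, L12, L15, L18, L23a, L38 and P2). Of the 18 called clusters that also hold contigs with other names, 3 were not called from their member contigs alone. These were CL12462 of L40, CL1761 of L19, which holds serine carboxypeptidase-like contigs (adjusted p = 0.112 from its member contig), and CL1044 of L23, whose other contigs carry no SwissProt name (adjusted p = 0.0681).

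**Figure D2:**
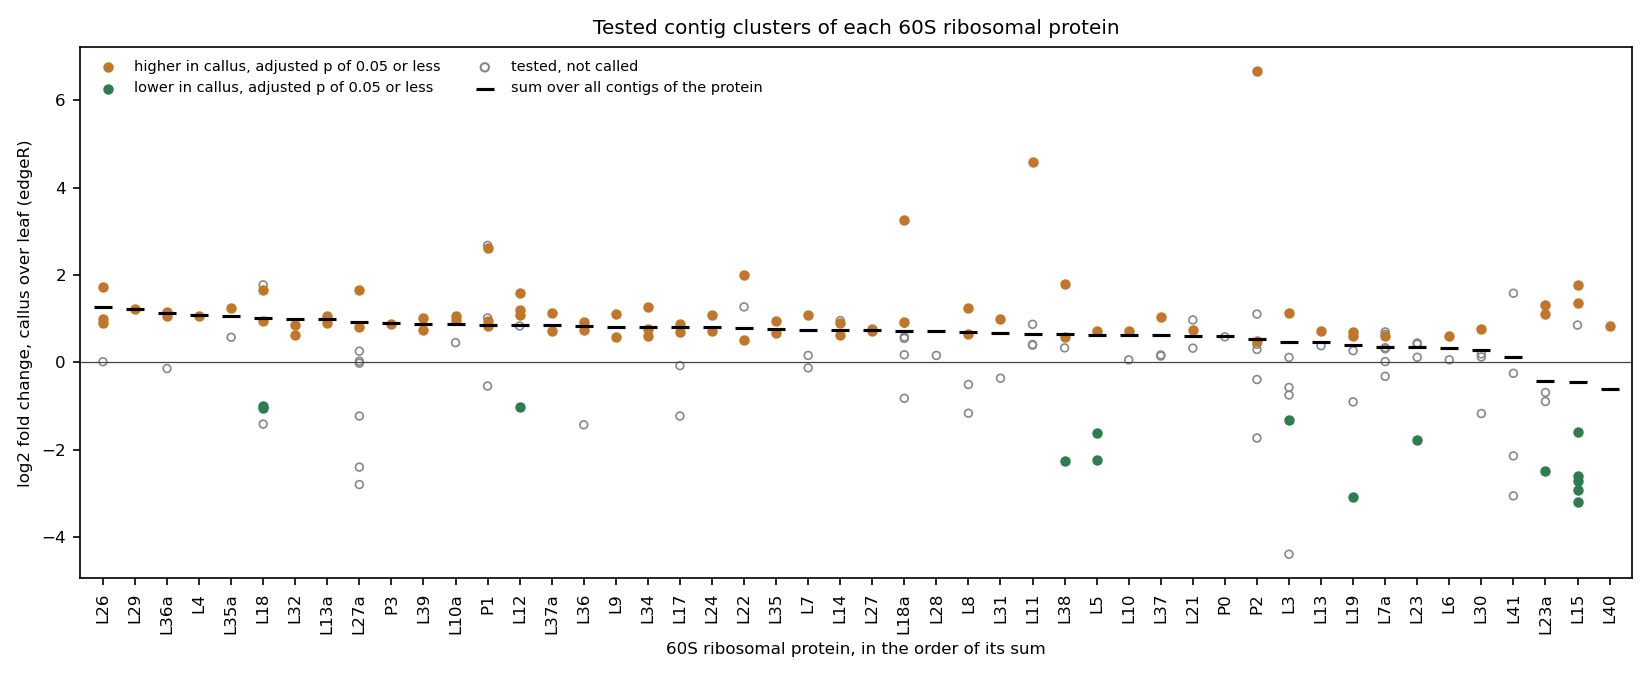
Fitted log2 fold change, callus over leaf, of every tested cluster of the 48 proteins, with filled points for called clusters, open points for the rest and black bars for the sum over all contigs of a protein. Of all 178 member clusters 75 were called higher and 21 lower. A cluster of L41 at 0 in all callus libraries is not drawn.

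The largest difference in share between paralogues was in L23a, a protein at the tunnel mouth where the signal recognition particle binds. Unigene1080_All, named L23a-1, had 131, 127 and 146 FPKM in callus and 716, 639 and 757 FPKM in leaves. It fell in callus by 2.48 ± 0.15 on the log2 scale (adjusted p = 0.000501). Unigene30061_All, named L23A, went the other way, with 333, 383 and 465 FPKM in callus and 142, 144 and 161 FPKM in leaves (1.31 ± 0.16, adjusted p = 0.00220). Unigene1181_All, a further L23a contig, had 202, 259 and 302 FPKM in callus and 125, 87.6 and 119 FPKM in leaves (1.11 ± 0.19, adjusted p = 0.00572). None of these 3 contigs overlapped between the tissues.

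As a share of the expected counts of L23a, Unigene1080_All took 20.3%, 17.1% and 16.5% in callus and 73.2%, 74.0% and 72.8% in leaves. Unigene30061_All took 48.7%, 48.5% and 49.6% in callus and 13.7%, 15.6% and 14.6% in leaves, so the leading contig differed between the tissues. The share test of edgeR, which asks whether a cluster changed differently from the rest of its protein, gave adjusted p values of 2.87e-05 for Unigene1080_All, 0.000320 for Unigene30061_All and 0.00135 for Unigene1181_All. These calls held when any 1 library was left out, with a highest adjusted p of 0.0293. The sum over L23a was 668, 772 and 918 FPKM in callus and 989, 873 and 1053 FPKM in leaves, which overlapped (-0.42 ± 0.16, adjusted p = 0.0792).

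L15, a protein buried among ribosomal RNA helices, also had contigs called in opposite directions. CL7009 had 215, 237 and 280 FPKM in callus and 106, 67.9 and 90.5 FPKM in leaves (1.36 ± 0.19, adjusted p = 0.00320). Unigene36754_All had 135, 178 and 191 FPKM in callus and 49.9, 42.0 and 47.3 FPKM in leaves (1.76 ± 0.15, adjusted p = 0.000837). Both were higher in every callus library than in any leaf library.

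In the other direction, Unigene8491_All, named L15 and with an L15 domain in Pfam, had 24.2, 16.3 and 16.1 FPKM in callus and 141, 76.7 and 109 FPKM in leaves (-2.60 ± 0.30, adjusted p = 0.00192). CL13536 had 11.5, 8.52 and 12.8 FPKM in callus and 82.2, 74.0 and 76.6 FPKM in leaves (-2.93 ± 0.21, adjusted p = 0.000603). The main contig of CL13536 carries the name L15-2 in SwissProt, but its NR match and Pfam domain are those of a universal stress protein. Unigene61233_All, named L15-1 with an NR match to a hypothetical protein, had 3.03, 3.59 and 3.91 FPKM in callus and 19.2, 17.3 and 28.7 FPKM in leaves (-2.72 ± 0.31, adjusted p = 0.00184). All 3 were lower in every callus library.

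Together CL7009 and Unigene36754_All led L15 in callus, with shares of its counts of 45.2% ± 0.946 and 36.4% ± 3.08, against 12.7% ± 0.674 and 7.84% ± 0.838 in leaves (SD, n = 3 each). Unigene8491_All had a share of 7.83% ± 2.79 in callus and 33.5% ± 4.62 in leaves, and CL13536 had 6.14% ± 1.30 in callus and 34.2% ± 4.41 in leaves. All these shares and their tests count CL13536, whose main contig matches a universal stress protein, as part of L15. Its larger part in leaves lowers the leaf shares of the other L15 clusters. Adjusted p values of the share test were 0.000199 for CL7009, 4.10e-06 for Unigene36754_All, 5.00e-06 for Unigene8491_All and 1.52e-07 for CL13536. The call of CL7009 was lost without callus replicate 3 (adjusted p = 0.0666) and without leaf replicate 2 (0.0637), and that of Unigene8491_All without callus replicate 3 (0.0711). The sum over L15 depended on the scale. Its FPKM was 394, 451 and 513 in callus and 410, 286 and 397 in leaves, while the fit to its counts, in which long contigs weigh more, gave -0.45 ± 0.17 (adjusted p = 0.0767). From members whose NR match names a ribosomal protein, it gave 0.11 ± 0.20 (adjusted p = 0.687), and without leaf replicate 2 the sum over all members was called lower (-0.58, adjusted p = 0.0389).

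**Figure D3:**
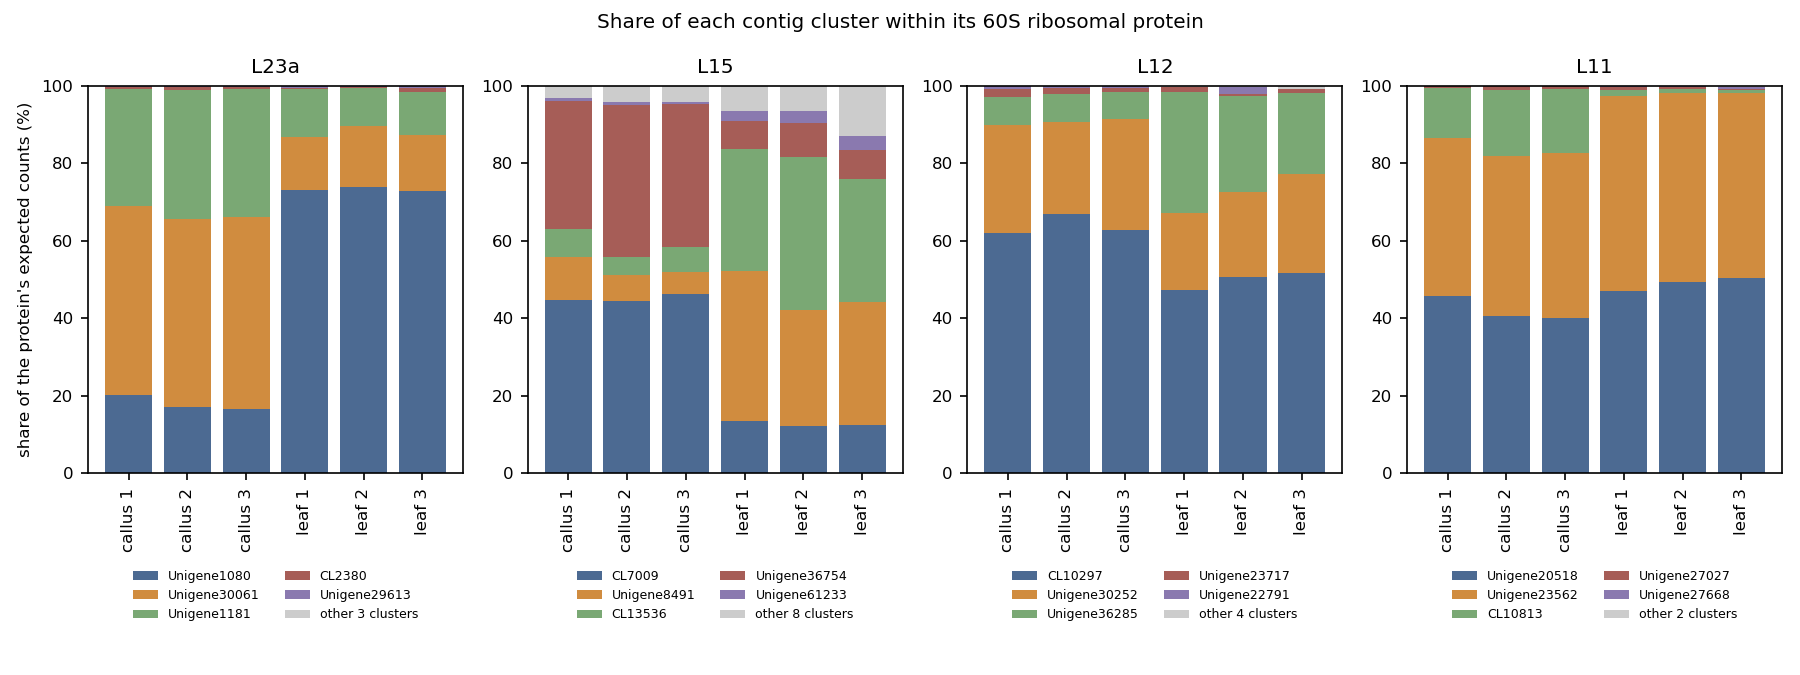
Share in percent of the expected counts of L23a, L15, L12 and L11 taken by the 5 largest clusters of each protein and by the rest, in the 3 callus and the 3 leaf libraries. In L23a, Unigene1080_All takes 16.5% to 20.3% in callus and 72.8% to 74.0% in leaves. The total of L15 includes CL13536, whose main contig matches a universal stress protein.

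The 2 largest rises among called clusters belonged to minor clusters of their proteins. Unigene9468_All, a P2 contig with the acidic ribosomal protein domain, had 29.2, 39.7 and 48.2 FPKM in callus and 0.15, 0.63 and 0.23 FPKM in leaves. It rose by 6.66 ± 0.60 on the log2 scale (adjusted p = 0.000990), yet held only 3.42%, 3.93% and 4.55% of the counts of P2 in callus. CL10813, an L11 cluster of 2 contigs, had 19.9, 33.5 and 36.8 FPKM in callus and 1.70, 0.87 and 0.90 FPKM in leaves (4.60 ± 0.39, adjusted p = 0.000858). It took 12.7%, 17.1% and 16.6% of the counts of L11 in callus and 1.36%, 0.910% and 0.717% in leaves (adjusted p of the share = 1.73e-07). The remaining L11 counts came mostly from Unigene23562_All and Unigene20518_All, of similar size, whose own changes were 0.39 ± 0.17 (adjusted p = 0.103) and 0.41 ± 0.14 (adjusted p = 0.0602).

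CL10658, named L22-2, an RNA-binding protein of the large subunit, had 94.4, 107 and 141 FPKM in callus and 28.1, 16.6 and 35.3 FPKM in leaves (2.01 ± 0.30, adjusted p = 0.00416). CL3060 of L38 had 72.5, 77.4 and 108 FPKM in callus and 26.2, 15.5 and 27.5 FPKM in leaves (1.79 ± 0.27, adjusted p = 0.00440). Both kept their calls in every fit that left out 1 library. Unigene58371_All carries the name L18a-3, with 9.19, 12.8 and 13.3 FPKM in callus and 0.18, 0.85 and 2.39 FPKM in leaves (3.25 ± 0.87, adjusted p = 0.0269), but its NR match and domain are those of a fatty acid desaturase. Its call was lost without any 1 callus library or without leaf replicate 2, with adjusted p values between 0.0589 and 0.0813.

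Among the falls outside L15 and L23a, Unigene36285_All of L12, a protein at the base of the stalk, had 17.9, 22.6 and 25.2 FPKM in callus and 54.7, 35.6 and 35.8 FPKM in leaves (-1.03 ± 0.22, adjusted p = 0.0121). Its share of L12 was 7.23%, 7.10% and 6.96% in callus and 31.3%, 25.0% and 21.0% in leaves (adjusted p = 0.0203), a call that was lost without any 1 callus library, at adjusted p values of 0.0845, 0.117 and 0.135. Unigene17145_All of L5 had 2.99, 2.29 and 3.21 FPKM in callus and 26.6, 6.89 and 5.05 FPKM in leaves (-2.24 ± 0.66, adjusted p = 0.0364), and its call too was lost without any 1 callus library, at adjusted p values up to 0.131. It was also lost without a filter on low counts (0.0654) and with limma (0.0731 and 0.0769), and without leaf replicate 1 the estimate was -1.19. Unigene16136_All of L41 had no count in callus and 31, 12 and 54 counts in leaves. Against a floor of 3 counts over the 3 callus libraries, it was at least 33.4-fold lower in callus. CL1761 of L19 had 9.22, 1.82 and 3.78 FPKM in callus and 38.1, 38.3 and 39.0 FPKM in leaves (-3.07 ± 0.63, adjusted p = 0.0113), but only 1 of its 21 contigs is a member. That contig had 2.15, 0.00 and 0.36 FPKM in callus and 12.6, 2.56 and 12.8 FPKM in leaves. The call of the cluster was lost without callus replicate 3 (adjusted p = 0.0587).

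**Figure D4:**
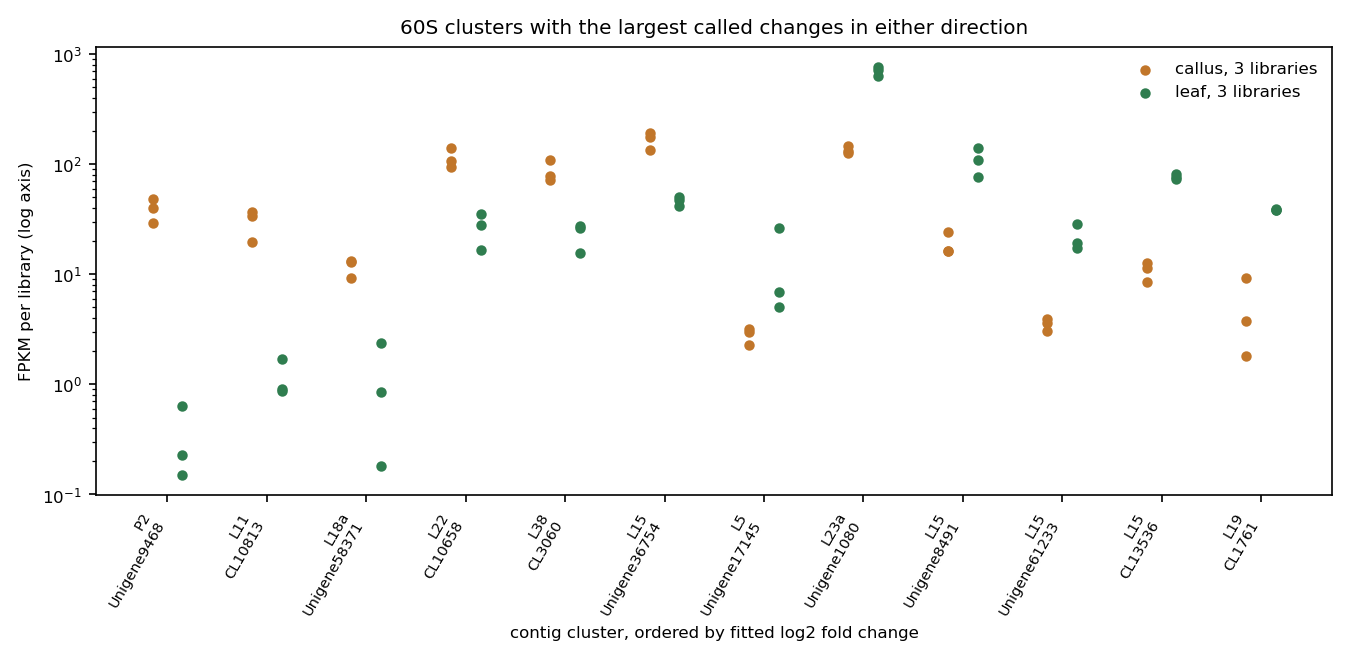
FPKM in every library, on a log axis, of the 6 clusters with the largest rises and the 6 with the largest falls among called clusters that reach 10 FPKM in the higher tissue, callus points left of leaf points. None of the 12 clusters overlaps between the tissues.

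Over the whole family, 172 clusters entered the share test. In 7 the share rose and in 16 it fell in callus, against 8.18% and 8.24% of all 17398 clusters tested, and 22 of the 23 did not overlap between the tissues. Of the 172, shares lay above those of leaves without overlap in 46 and below in 55, against 27.6% and 26.2% of all. Without a filter on low counts, 6 shares rose and 49 fell. At an adjusted p of 0.001, 10 shares passed, where 4.90% of all did. The 23 shares belonged to 13 of the cytosolic proteins and to mitochondrial L2. The cluster with the most counts differed between the tissues in 8 of 48 proteins (L6, L11, L15, L23a, L26, L27a, L37 and L41), and by FPKM of the member contigs in 4 (L12, L15, L23a and L37). L15, L23a and L37 stood in both lists. In L37, Unigene36011_All had 172, 197 and 234 FPKM in callus and 108, 78.7 and 91.1 FPKM in leaves, while CL2945 had 106, 129 and 150 FPKM in callus and 144, 87.1 and 92.6 FPKM in leaves. The shares of these L37 clusters were not called (adjusted p = 0.572 and 0.522).

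Members with other names were kept apart. The 11 L18a-like contigs summed to 100, 85.7 and 85.3 FPKM in callus and 124, 84.0 and 97.8 FPKM in leaves, and of their 5 tested clusters 1 was called, as lower. With their counts added to L18a, the rise of L18a was no longer called (0.45 ± 0.19, adjusted p = 0.0981, against 0.73 ± 0.21 and 0.0317 without them). Mitochondrial L6 summed to 68.9, 70.4 and 76.3 FPKM in callus and 118, 113 and 72.4 FPKM in leaves, and 3 of its 4 clusters fell. The largest of these, Unigene14313_All, had 44.4, 42.9 and 47.9 FPKM in callus and 88.8, 88.4 and 51.8 FPKM in leaves (-0.85 ± 0.23, adjusted p = 0.0294). Mitochondrial L2 summed to 26.1, 31.6 and 32.4 FPKM in callus and 33.8, 26.6 and 27.7 FPKM in leaves, and 1 of its 4 clusters fell. Among all clusters 20.8% were lower in callus, so 1 of 5 and 1 of 4 are near the background.

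Other genes of translation and of ribosome assembly were counted for comparison, each by clusters tested in the same fit. Cytosolic translation factors rose in 32 and fell in 21 of 137 clusters, with a median log2 fold change of 0.13. Ribosome biogenesis factors rose in 7 and fell in 9 of 46, with a median of -0.06. Proteins of the plastid ribosome rose in 11 and fell in 59 of 111, with a median of -1.36, and other mitochondrial ribosomal proteins rose in 6 and fell in 3 of 22, with a median of 0.28. All of these stand against the 22.0% higher and 20.8% lower of all clusters.

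Not every member is equally well named. NR named a ribosomal protein for 376 of the 475 members, the first KEGG entry did so for 458 and a Pfam domain did for 276. In 63 members the best NR match was in cork oak (Quercus suber), and after their values were seen these were divided by whether callus held any of their counts. The 58 without a count in callus spread over 38 of the 48 proteins. Their summed level was 0 in each callus library and 46.4, 15.5 and 91.5 FPKM in leaf replicates 1, 2 and 3, with no single contig above 4.32 FPKM. None of these 58 passed the filter on low counts. The 5 others, of P2, L14 and L19, summed to 173, 207 and 249 FPKM in callus and 156, 128 and 157 FPKM in leaves. Outside the family, 1069 of 2815 unigenes with a cork oak match (38.0%) had no count in callus, against 92.1% of the members with such a match. A further 32 members matched genera outside land plants and held 9, 3 and 11 counts in callus and 19, 8 and 86 counts in leaves. Where these contigs come from was not tested, and without both sets 35 of the 48 sums were called, as with them.

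**Figure D5:**
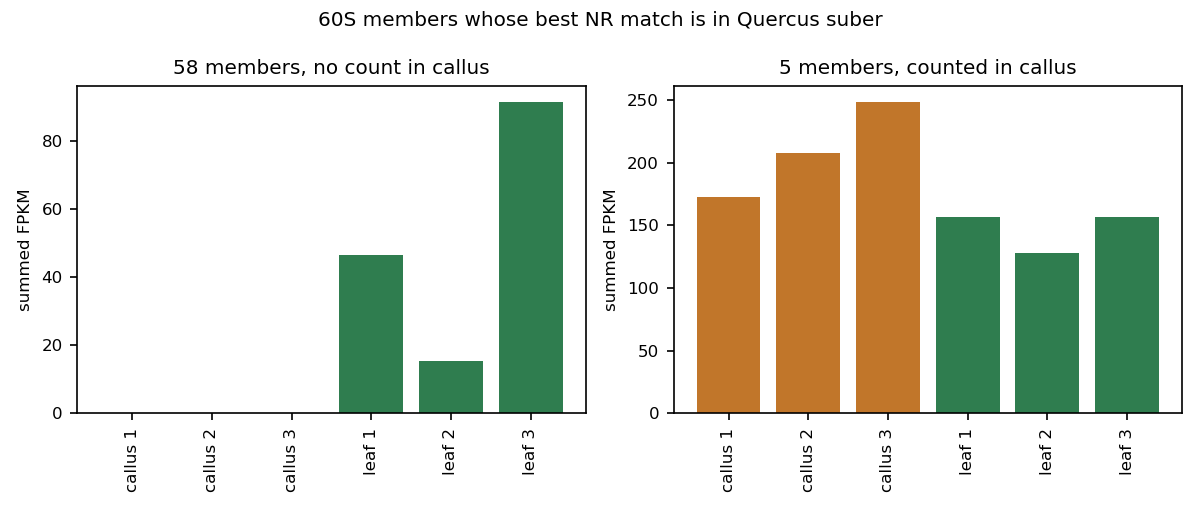
Summed FPKM per library, callus left of leaf, of the 58 members with a cork oak match and no count in callus and of the 5 members with such a match that callus libraries hold. The 58 reach 91.5 FPKM in leaf replicate 3 and the 5 reach 249 FPKM in callus replicate 3.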

How the data were processed

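The authors purified mRNA from 3 callus and 3 leaf samples, assembled the reads with Trinity and TGICL, aligned them to the unigenes with Bowtie2 2.2.5 and estimated expression with RSEM 1.2.8. The deposited expected counts are estimated counts per unigene without normalization, shared among contigs that a read matches, so cluster sums are more certain than contigs. The deposited FPKM values divide the counts by library total and length. The unigene length in the deposited table was used for description only. Columns with the authors' log2 fold change, p-value and q-value of callus against leaf, and their averages, were not used. No genome or sequence of these unigenes was used here.

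Expected counts were summed, rounded and fitted with edgeR 4.0.16 in R 4.3.3 (TMM, its filter on low counts, quasi-likelihood F test, Benjamini-Hochberg over all rows), for unigenes, clusters, and a table with the contigs of each protein summed. SE is the log2 fold change over the square root of F. Paralogue shares were tested with edgeR's diffSpliceDGE, with clusters as exons and SwissProt names as genes. A row was called at an adjusted p of 0.05. Alternatives were DESeq2 1.42.0, limma 3.58.1 on log2(FPKM + 1) and log2(FPKM + 0.01) over rows above 0 in at least 3 libraries, other scalings, no filter, the study's thresholds (0.001 and 2-fold), member contigs only, and each library left out. In simulated callus and leaf counts with 200 changed rows at a dispersion of 0.05, edgeR recovered 180 at 4-fold and 59 at 2-fold among the clusters (32201 and 32207 tested), with 4 and 1 false calls. Of the shares, 125 were recovered at 4-fold and 15 at 2-fold. Of 398 and 42 calls, 29 and 6 lay in names without a changed cluster and were counted as false. The other calls, which outnumbered those recovered, fell on unchanged clusters that share a name with a changed one. A share call is thus less certain than its adjusted p says. It does not by itself show a change in the cluster's own level. At a dispersion of 0.5, edgeR recovered 1 of 200 clusters at 4-fold. The square root of the common dispersion fitted to the data was 0.537 for clusters and 0.753 for unigenes. The data thus spread more than the simulation at 0.05, whose recovery does not describe them, and shares were simulated at 0.05 only.

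The members and lists were chosen with earlier results of these data known. Clusters were named when they had the highest mean FPKM of their protein, were among the 6 largest or 6 smallest called log2 fold changes and averaged 10 FPKM or more in 1 tissue, or among the 10 largest called differences in share. L44 was counted with L36a. Libraries held 17963302 to 19444322 counts, which limits what can be seen of rare contigs. Tables and plots used pandas 2.3.3, numpy 2.4.6 and matplotlib 3.10.9 under Python 3.11.15.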

Additional observations from a re-analysis of the deposited data

Results flagged for a closer look

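The 42 unigenes that met the naming rule but matched peanut in NR were outside the comparisons. They held 390 expected counts in leaf replicate 1 and 20 in leaf replicate 2, and 0 in leaf replicate 3 and in each callus library, where a count of 0 allows up to 3 counts. The counts of leaf replicates 1 and 2 lie above that limit. In leaf replicate 1, 39 of the 42 were counted. Over the whole table, unigenes with a peanut match held 0.178% to 0.186% of the counts in callus and 1.17%, 0.347% and 0.250% in leaf replicates 1, 2 and 3. With the 42 kept, the number of proteins called higher in callus was 35, as without them. A further 14 unigenes, with a peanut match only in the NT nucleotide database, stayed among the 475 members. All 14 were counted in leaf replicate 1, and 5 in each other library. They held 1159 counts in leaf replicate 1, 599 and 629 in leaf replicates 2 and 3, and 400 to 480 in the callus libraries. Where these contigs come from was not tested.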

How the results depend on the processing

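The sums of the 48 proteins gave 33 to 37 calls under other scalings, no filter, DESeq2, limma, peanut rows kept and the 3 member sets added after seeing the data, 38 (37 higher and 1 lower) from the most abundant cluster of each, and 18 to 33 with 1 library left out. The 33 of the NR-named members came from 45 tested proteins, without L27, L40 and L41. Sums over all members gave 0 calls at the study's thresholds. Calls of clusters numbered 61 to 87 with 1 library left out, and 7 at the study's thresholds, and lower calls among them, 21 in the main test, were 50 with DESeq2, 39 with limma on log2(FPKM + 1) and 58 on log2(FPKM + 0.01). Calls of unigenes, 89 in the main test, numbered 159 with DESeq2, 136 with limma on log2(FPKM + 1), 144 on log2(FPKM + 0.01), 4 to 88 with 1 library left out, and 0 at the study's thresholds. Shares called, 23 in the main test, numbered 55 (6 higher and 49 lower) without a filter on low counts, 10 at the study's adjusted p, and 18 to 33 with 1 library left out. The most abundant cluster of L15 had a log2 fold change of 1.36 and that of L40, nearly all from polyubiquitin contigs, one of 0.84, both opposite to the sums. From NR-named members alone, chosen after seeing the data, L36 was at -0.39 and L38 at -0.51, opposite to their sums over all members. The median over member clusters was 0.61 with DESeq2's size factors, 0.65 with library totals and 0.43 to 0.60 with 1 library left out. The difference in the share of all counts, 0.589 percentage points, was 0.589 to 0.592 under the 3 choices of rows. Depth limits the 148 untested clusters, and a spread between 3 libraries limits small changes. No paired analysis was possible because the labels give no replicate numbers (those used here follow accession order) and tie no callus library to a leaf library.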

Other observations

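A few members had nearly all their counts in 1 library, among contigs with at least 200 counts. Unigene70743_All, named L3-1, had 1060 counts in leaf replicate 1 and 0 in every other library. Unigene11149_All and Unigene71403_All, both named L18a-like protein, had 233 and 338 counts in leaf replicate 1 and at most 1.78 in any other library. Unigene10164_All, named L15, had 854 counts in leaf replicate 3, 15.2 and 5.29 in leaf replicates 1 and 2, and 0 in callus. CL3936.Contig2_All of L26 had 194 counts in leaf replicate 2 and at most 8.70 elsewhere.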
